A study of Mus musculus with 6 samples.

Results

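The genes described here are 10 members of the bone morphogenetic protein (BMP) pathway, measured by RNA-seq in mouse granulosa cells (GCs) with and without dihydrotestosterone (DHT). They are the ligands *Bmp2* and *Bmp4*, the receptors *Bmpr1a*, *Bmpr1b* and *Bmpr2*, the target genes *Id1*, *Id2* and *Id3*, and the inhibitory SMAD genes *Smad6* and *Smad7*. They were taken by gene name from the 16300 genes of the deposited table, and all 10 were present and tested. GCs are follicle cells that nurse the oocyte and make its steroids, and DHT is an androgen that aromatase cannot turn into estrogen. The mice were wild type C57BL/6J animals aged 8 to 9 weeks, and each library came from the pooled GCs of 5 animals. The cells were isolated on the day of estrus, grown for 48 h with 10% serum and kept without serum for 4 h before treatment. The 3 control libraries came from cells kept in medium, and the 3 DHT libraries from cells given 25 nM DHT for 24 h. These were primary cultures, taken out of the follicle. The sample labels speak of RNA from whole ovaries and name DHT in the treatment text of every sample, so the groups were taken from the separate treatment label.

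BMPs are secreted dimers of the TGF-β superfamily that bind a complex of type I and type II serine/threonine kinase receptors. The activated type I receptor phosphorylates SMAD1, SMAD5 and SMAD8, which join SMAD4 and enter the nucleus. There they raise the transcription of *Id* genes, whose products block basic helix-loop-helix factors, and of *Smad6* and *Smad7*, whose products dampen the same receptors. In the ovary BMP signaling is known for restraining luteinization and for shaping the response of GCs to follicle-stimulating hormone.

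DHT moved the ligands in opposite directions. *Bmp2* fell to 51.7% of its control mean, while *Bmp4*, far less abundant, rose to 272%. Both inhibitory SMAD genes and *Id2* were lower with DHT, *Bmpr1b* was slightly higher, and *Bmpr1a*, *Bmpr2*, *Id1* and *Id3* did not pass the test. A gene was called changed where limma's moderated test over all 16292 genes tested gave a Benjamini-Hochberg adjusted p no larger than 0.05. Under that rule 6 of the 10 members were called, where 11.2% of all genes tested were. The count fell to 3, *Bmp2*, *Bmp4* and *Smad6*, without DHT replicate 2, without DHT replicate 3, with the replicate number as a block and with no intensity trend in limma. Of the 6, 2 were higher and 4 were lower, and over all genes 6.52% were called higher and 4.66% lower. Only *Bmp4* also changed by more than 2-fold (an absolute log2 fold change above 1), a rule that 1.31% of all genes passed in either direction and 0.908% upward. Without control replicate 3 *Bmp2* passed that rule too (log2 fold change -1.10, limma adjusted p = 7.68e-06). The libraries of the 2 groups did not overlap for 7 members, 3 higher and 4 lower with DHT, and for 30.6% of all genes tested. The median absolute log2 fold change was 0.38 over the members and 0.11 over all genes tested. In bulk RNA, fewer cells of a type and less RNA per cell cannot be told apart.

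**Figure D1:**
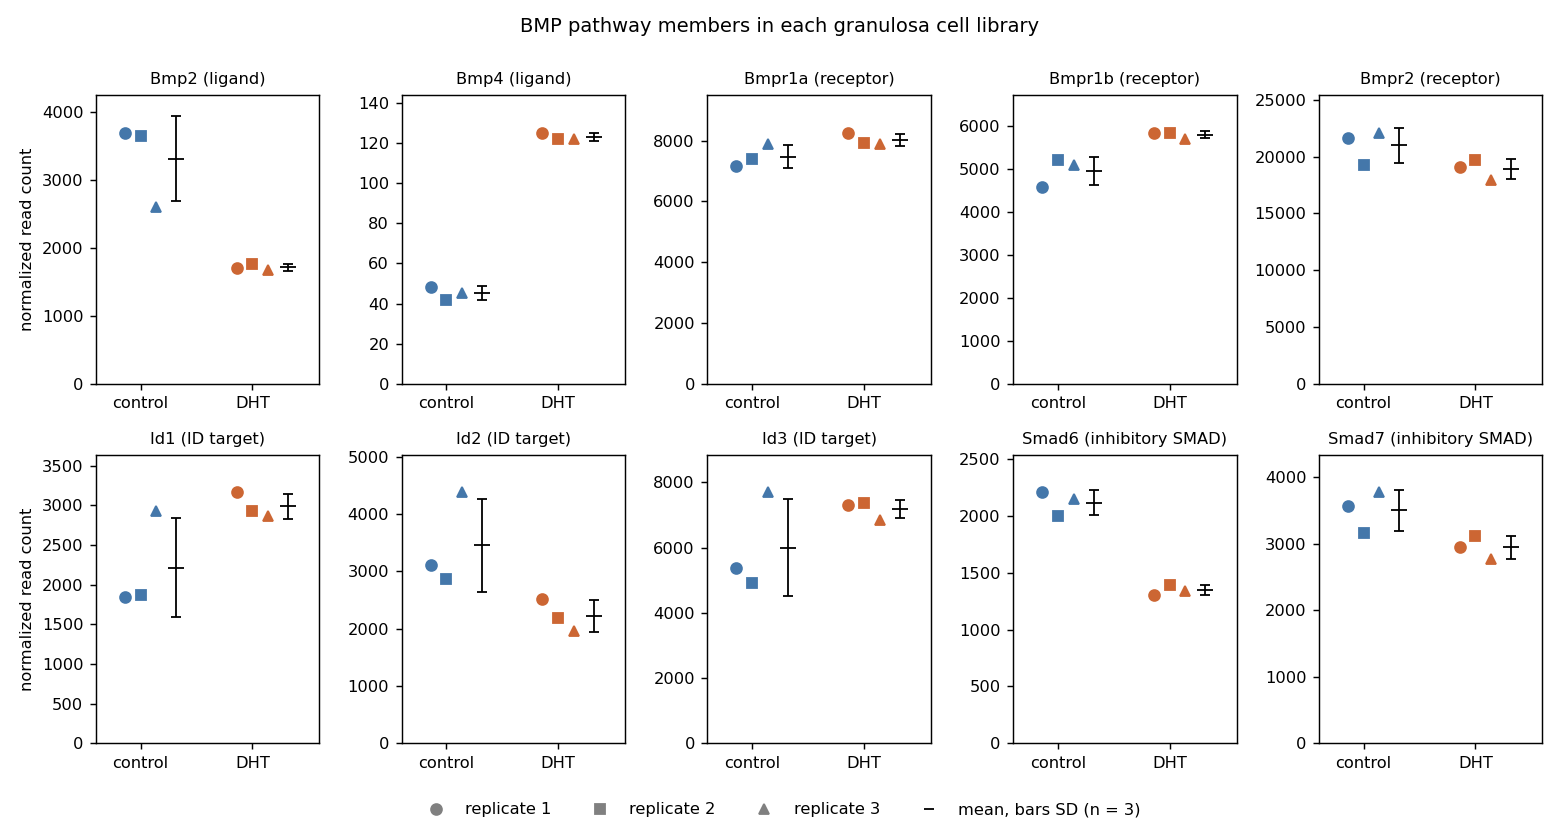
Normalized read count of each member in the 3 control and 3 DHT libraries, with the axis of each panel starting at 0, a symbol for each replicate, and the mean with SD (n = 3) beside the points. *Bmp2*, *Id2*, *Smad6* and *Smad7* are lower in every DHT library than in every control library, *Bmp4*, *Bmpr1a* and *Bmpr1b* are higher, and control replicate 3 stands apart from the other controls in *Bmp2* and in *Id1*, *Id2* and *Id3*.

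The values are normalized read counts, that is reads counted on a gene divided by the size factor of the library. The libraries held between 36111177 and 41928585 reads on genes. GC markers ranged widely in control, from 130.3 normalized counts for *Amh* and 150.1 for the FSH receptor gene *Fshr* to 54181 for *Inha*, the inhibin alpha subunit, and 71378 for the gap junction gene *Gja1*. Of 11 GC markers tested, 3 were lower with DHT by limma and 1, *Hsd17b1*, was higher. Over all genes tested 4.66% were called lower and 6.52% higher, and these shares stand beside the counts of the other marker types too. The lower GC markers were *Kitl*, *Inha* and *Foxl2*, with log2 fold changes of -0.85, -0.61 and -0.15. The summed GC markers held 207710 to 222000 in control and 189900 to 203640 with DHT. The summed count of 4 endothelial markers was 150 to 179 in control and 141 to 199 with DHT, and none was called. The sum of 4 immune markers was 471 to 546 in control and 362 to 605 with DHT. Of these, *Csf1r* was lower (log2 fold change -0.64, limma adjusted p = 0.027), also without control replicate 3 (limma adjusted p = 0.04). *Ptprc*, at 0.72, and the other immune markers were not called. The defining theca marker *Cyp17a1* and the aromatase gene *Cyp19a1* were not analysed here. The sum of 7 other theca and stromal markers was 3990 to 4521 in control and 3436 to 3942 with DHT, lower in every DHT library. *Ptch1* and *Col1a1* carried most of that sum, and *Ptch1* alone of the 7 had no overlap between the groups. None of the 7 was called by limma, with a median log2 fold change of -0.24, and *Dcn* was called lower without control replicate 3 (limma adjusted p = 0.0183). Of 5 smooth muscle markers tested, 4 were higher with DHT by limma, *Des* did not pass, and *Cnn1* lost its call without control replicate 3 (limma adjusted p = 0.0578). The sum of the 5 was 4662 to 6831 in control and 8726 to 10368 with DHT. *Acta2* carried most of that sum. Of 5 luteal markers, 2 were higher, *Ptgfr* and the steroidogenic gene *Cyp11a1*, with log2 fold changes of 1.95 and 0.49. Without control replicate 3 these were 2.68 and 0.43, and *Lhcgr* was called too (1.92 in place of 1.38). *Star* and *Akr1c18*, at 0.19 and -0.01 with all 6 libraries, did not pass in either fit. The luteal sum was 89044 to 104680 in control and 116860 to 142540 with DHT, and *Cyp11a1* carried most of it. The part of such cells in the results was not tested. By Euclidean distance on log2 values, control replicate 3 lay nearest to control replicate 2 (44.2), and as far from control replicate 1 as from DHT replicate 1 (48.3 in both cases), the shortest distance between the groups. DHT replicate 2 was the farthest from its own group, at 52.1 and 53.9. Control replicate 3 differed from the other controls in several members, and the results for the members are given with and without it where they rest on it. Oocyte transcripts were present at a summed 34.9 to 779 for 7 markers.

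The set of RefSeq promoters used here (GRCm38.p6) held 7 of the 10 members, in 9 windows that run from 250 bases before the start site to 50 bases after it. *Bmp2*, *Id1* and *Smad7* had no window in that set. Each window was searched on both strands for GGCGCC (a palindrome bound by SMAD1 and SMAD5), GTCTAGAC (a palindrome bound by SMAD4), CAGACA, TGACGTCA (the cAMP response element), CACGTG (an E-box) and the androgen response element, which is AGAACA, 3 free bases and TGTTCT. The arm AGAACA was also searched alone, so that each full element counts there too. Windows of 3 members that were called are shown here up to the tenth base of the transcript, on the strand of the gene. They carry a SMAD palindrome or an E-box. The capitals mark the motif named for each gene.
Smad6 (chr9:64022050-64022309, minus strand, GTCTAGAC): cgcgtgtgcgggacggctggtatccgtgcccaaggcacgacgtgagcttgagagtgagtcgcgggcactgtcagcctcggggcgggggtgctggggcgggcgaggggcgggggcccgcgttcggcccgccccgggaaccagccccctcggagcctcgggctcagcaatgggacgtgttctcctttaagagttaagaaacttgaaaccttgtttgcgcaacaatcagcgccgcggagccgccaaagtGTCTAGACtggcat
Id2 (chr12:25096083-25096342, minus strand, GGCGCC): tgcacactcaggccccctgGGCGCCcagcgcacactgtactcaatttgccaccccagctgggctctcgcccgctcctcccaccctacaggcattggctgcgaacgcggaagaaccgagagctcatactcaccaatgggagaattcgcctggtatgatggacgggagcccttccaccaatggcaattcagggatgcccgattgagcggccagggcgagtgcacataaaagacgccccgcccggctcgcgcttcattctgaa
Bmp4 (chr14:46390660-46390919, minus strand, CACGTG): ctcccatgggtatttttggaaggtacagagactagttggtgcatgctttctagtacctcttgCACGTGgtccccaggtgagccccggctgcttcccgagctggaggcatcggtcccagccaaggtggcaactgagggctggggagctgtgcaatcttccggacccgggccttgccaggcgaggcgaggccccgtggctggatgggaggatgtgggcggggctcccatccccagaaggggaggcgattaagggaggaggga

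Positions count back from the start site, the last base before it being -1. The SMAD4 palindrome of *Smad6* begins at -4 and spans the start, and 0.213% of all 32851 promoter windows hold that motif. GGCGCC was found in *Id2*, *Bmpr1a* and *Bmpr2*, beginning at -231, -198 and -105, and 11.9% of all windows hold it. The E-box of *Bmp4* begins at -188, and 7.15% of windows have it. Other matches were CAGACA in *Bmpr1b* (held by 21.0% of windows) and the arm AGAACA in *Smad6* and *Bmpr2* (19.0%). The window of *Id3* held none of the motifs, and no member window held the full androgen response element, which occurs in 0.00913% of all windows, or the cAMP response element, which occurs in 1.79%. These matches describe the letters of the windows and were not tested against expression.

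Of the ligands, *Bmp2* encodes a BMP made by GCs themselves. The gene lies on chromosome 2 of GRCm38, from 133552159 to 133562885. It held 3694, 3651 and 2595 normalized counts in control replicates 1, 2 and 3, and 1697, 1767 and 1673 in DHT replicates 1, 2 and 3. Every DHT library was below every control library, and control replicate 3 was the lowest control. On the log2 scale DHT changed *Bmp2* by -0.93 (SE 0.12, limma, Benjamini-Hochberg adjusted p = 0.00136). Without control replicate 3 it was -1.10, and over all libraries left out in turn it lay between -1.10 and -0.85 and the limma adjusted p did not exceed 0.0112.

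*Bmp4* encodes a BMP that in the follicle is known mainly as a product of theca cells. It lies on chromosome 14, from 46383520 to 46390669, and 89 bases of its exons (3.96%) overlap *Gm15217* on the other strand. Normalized counts were 48.5, 41.8 and 45.4 in the control libraries and 125, 122 and 122 in the DHT libraries. The groups were far apart beside their spread. The rise was 1.43 on the log2 scale (SE 0.14, limma, Benjamini-Hochberg adjusted p = 0.000411). These values rest on 45 to 49 reads in control and 112 to 128 with DHT. The SD of the DHT libraries, 1.87, was smaller than the 11.4 that counting alone would give at this depth, so the replicates understate the error of this gene.

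Within each library *Bmp2* exceeded *Bmp4* throughout. The ratio of *Bmp2* to *Bmp4* normalized counts was 76.2, 87.3 and 57.2 in control and 13.5, 14.5 and 13.7 with DHT. On the log2 scale the ratio of *Bmp4* to *Bmp2* rose by 2.36 without overlap between groups (exact permutation test, two-sided, p = 0.1, adjusted over 4 ratios p = 0.1). That is the smallest p that 3 libraries against 3 allow. Per kilobase of exon, the summed level of both ligands was 1061, 1046 and 750 in control and 533, 551.5 and 524.7 with DHT, and *Bmp4* supplied 2.17% ± 0.471 of that sum in control and 10.2% ± 0.316 with DHT (SD, n = 3). The mean of the summed level with DHT was 56.3% of the control mean, so the fall of *Bmp2* was not made up by *Bmp4*.

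The receptor genes differed least. *Bmpr1b* (chromosome 3, 141837136 to 142169425) encodes a type I receptor known for its role in ovulation rate and in GC differentiation. It held 4583, 5192 and 5078 normalized counts in control and 5834, 5834 and 5695 with DHT. All DHT libraries were above all control libraries, by 0.23 on the log2 scale (SE 0.05, limma, Benjamini-Hochberg adjusted p = 0.0195). The call was lost when any of the 3 DHT libraries was left out, with a limma adjusted p from 0.0589 to 0.0798.

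*Bmpr1a* (chromosome 14, 34410734 to 34503341), the other type I receptor of the list, held 7151, 7384 and 7883 normalized counts in control and 8259, 7926 and 7899 with DHT. The groups did not overlap, but control replicate 3 and DHT replicate 3 lay almost level. Its log2 fold change was 0.10 with an unadjusted 95% interval of 0.01 to 0.20 (limma, Benjamini-Hochberg adjusted p = 0.177). A stretch of 290 exon bases (4.57%) overlaps *Gm17110* on the other strand, a gene that held 18.8 normalized counts in control and 17.6 with DHT.

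*Bmpr2* (chromosome 1, 59763400 to 59879014) encodes the type II receptor that phosphorylates the type I receptors. Its normalized counts were 21621, 19236 and 22095 in control and 19061, 19656 and 17960 with DHT. The groups overlapped, since control replicate 2 lay below DHT replicate 2. The log2 fold change was -0.15 with an unadjusted 95% interval of -0.28 to -0.02 (limma, Benjamini-Hochberg adjusted p = 0.149). It was called only without control replicate 2 (log2 fold change -0.21, limma adjusted p = 0.0382). The share of *Bmpr1b* in the summed type I receptor level per kilobase was 41.4% ± 1.26 in control and 43.4% ± 0.50 with DHT (SD, n = 3). The log2 ratio of *Bmpr1b* to *Bmpr1a* was higher by 0.12, with no overlap and an exact permutation p of 0.1.

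**Figure D2:**
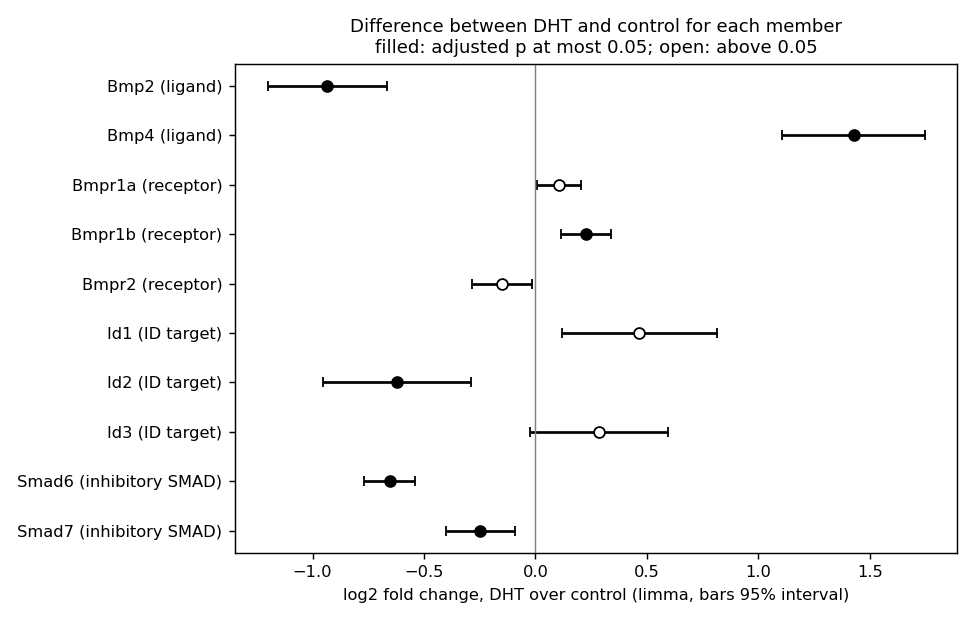
Log2 fold change of DHT over control for each member by limma, with bars for the unadjusted 95% interval, filled points where the adjusted p was at most 0.05 and open points elsewhere. *Bmp4* at 1.43 and *Bmp2* at -0.93 are the farthest from 0, the receptors lie between -0.15 and 0.23, and the inhibitory SMAD genes lie below 0.

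The inhibitory SMAD genes were both lower. *Smad6* (chromosome 9, 63953076 to 64022059), whose promoter letters are given above, encodes an inhibitor that acts mainly on BMP receptors. It held 2207, 1997 and 2147 normalized counts in control and 1305, 1393 and 1337 with DHT. The groups were far apart beside their spread. The difference was -0.65 on the log2 scale (SE 0.05), with the lowest adjusted p of the 10 members (limma, Benjamini-Hochberg adjusted p = 0.000128). With each library left out in turn the log2 fold change stayed between -0.69 and -0.62 and remained called.

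*Smad7* (chromosome 18, 75367529 to 75395935) encodes an inhibitor of BMP, activin and TGF-β receptors alike. It held 3565, 3168 and 3774 normalized counts in control and 2946, 3121 and 2765 with DHT. The groups did not overlap, though control replicate 2 and DHT replicate 2 lay close together. Its log2 fold change of -0.25 (SE 0.07) lay just inside the threshold (limma, Benjamini-Hochberg adjusted p = 0.0497). It was lost under 5 of the 6 removals of 1 library (all but control replicate 2), with a limma adjusted p of up to 0.176, and with a pseudocount of 0.5 the adjusted p was 0.0502. *Smad6* fell by more than *Smad7* within libraries. The ratio of their normalized counts was 0.619, 0.630 and 0.569 in control and 0.443, 0.446 and 0.484 with DHT, a log2 difference of -0.40 without overlap (two-sided exact permutation p = 0.1, again the smallest possible).

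The *Id* genes encode proteins that bind E proteins and keep them from DNA, and they are among the most direct readouts of BMP signaling. Their members did not move together. *Id2* (chromosome 12, 25093799 to 25097140) held 3113, 2871 and 4377 normalized counts in control and 2512, 2184 and 1953 with DHT. All DHT libraries were below all control libraries, and control replicate 3 was the highest of the 6. *Id2* changed by -0.62 on the log2 scale (SE 0.15, limma, Benjamini-Hochberg adjusted p = 0.027). Without control replicate 3 it was -0.44 and still called (limma adjusted p = 0.0151). The call was lost without DHT replicate 2 (limma adjusted p = 0.0872) or DHT replicate 3 (limma adjusted p = 0.112).

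*Id1* (chromosome 2, 152736251 to 152737410) held 1840, 1872 and 2935 normalized counts in control and 3166, 2934 and 2868 with DHT. Control replicate 3 lay within the DHT range, and the other control libraries lay far below it. The log2 fold change was 0.47 with an unadjusted 95% interval of 0.12 to 0.81, and it did not pass the test (limma, Benjamini-Hochberg adjusted p = 0.0917). Without control replicate 3 the log2 fold change was 0.69 and passed (limma adjusted p = 0.000105).

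*Id3* (chromosome 4, 136143497 to 136145755) had the same layout. It held 5377, 4921 and 7699 normalized counts in control and 7295, 7381 and 6860 with DHT. Control replicate 3 was the highest of all 6 libraries. The log2 fold change was 0.29 with an unadjusted 95% interval of -0.02 to 0.60 (limma, Benjamini-Hochberg adjusted p = 0.235). Without control replicate 3 it was 0.48 and passed (limma adjusted p = 0.000583).

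Control replicate 3 held more of all 3 *Id* transcripts than the other controls, by 1.58-fold for *Id1*, 1.46-fold for *Id2* and 1.5-fold for *Id3*, and less *Bmp2*, at 0.707 of their level. *Bmp4*, *Smad6* and *Bmpr1b* were within 1.04-fold of the other controls in that library. *Hes1*, named here after its values were seen and known as a target of Notch and BMP signaling, held 3230 normalized counts in this library, against 337 and 382 in the other controls and 3566 to 4074 with DHT. *Nr4a1*, an immediate-early gene also named after its values were seen, showed 10385 against 1950 and 2546 in the other controls, and 6431 to 9911 with DHT. The part of these differences in the *Id* results was not tested.

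**Figure D3:**
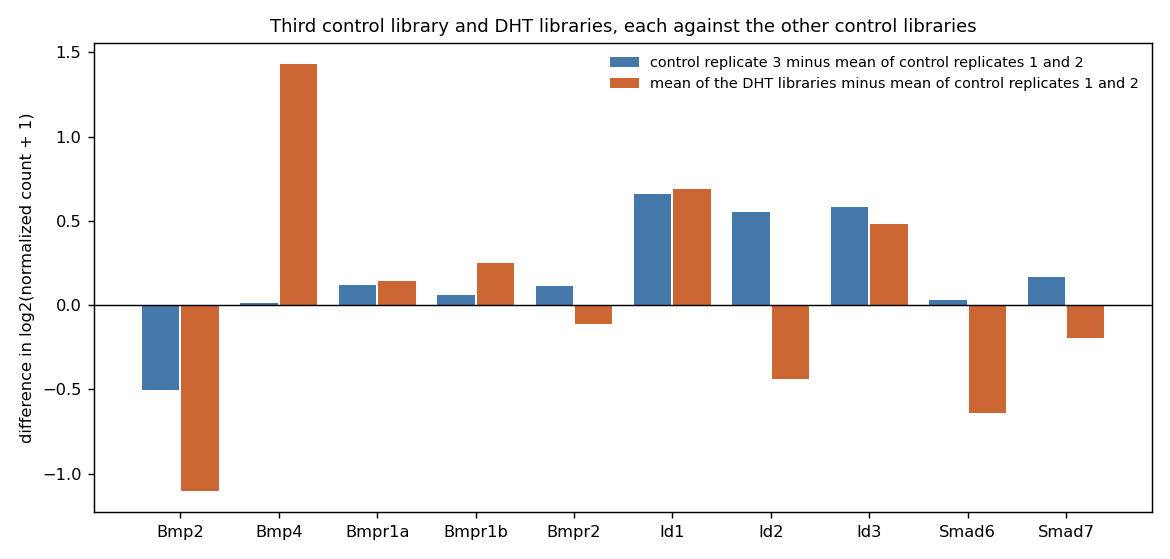
Difference in log2(normalized count + 1) of control replicate 3 (blue) and of the mean of the 3 DHT libraries (orange) from the mean of control replicates 1 and 2, for each member. For *Id1* and *Id3* both bars are of like height, 0.66 and 0.69 for *Id1*, while for *Id2* they point in opposite directions, 0.55 and -0.44, and for *Bmp4* and *Smad6* the bar of control replicate 3 is near 0.

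The ratios between *Id* genes did not carry this difference. The ratio of *Id1* to *Id2* normalized counts was 0.591, 0.652 and 0.670 in control and 1.26, 1.34 and 1.47 with DHT, and that of *Id3* to *Id2* was 1.73, 1.71 and 1.76 in control and 2.90, 3.38 and 3.51 with DHT. Control replicate 3 lay beside the other controls in both ratios, and the groups did not overlap. These pairs were chosen after the values were seen and are given with no test. The planned pair, *Id1* against *Id3*, differed by 0.18 on the log2 scale without overlap (two-sided exact permutation p = 0.1, the smallest possible). Per kilobase of exon, *Id2* supplied 21.8, 21.3 and 20.8% of the summed *Id1*, *Id2* and *Id3* level in control and 13.2, 11.9 and 11.3% with DHT. The sum itself was 6676 ± 1695 in control and 7494 ± 367 with DHT (SD, n = 3), a difference smaller than the control SD. That SD came mostly from control replicate 3. The summed level was 5866, 5537 and 8624 in control and 7832, 7547 and 7104 with DHT, so without control replicate 3 every DHT library lay above both remaining controls.

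**Figure D4:**
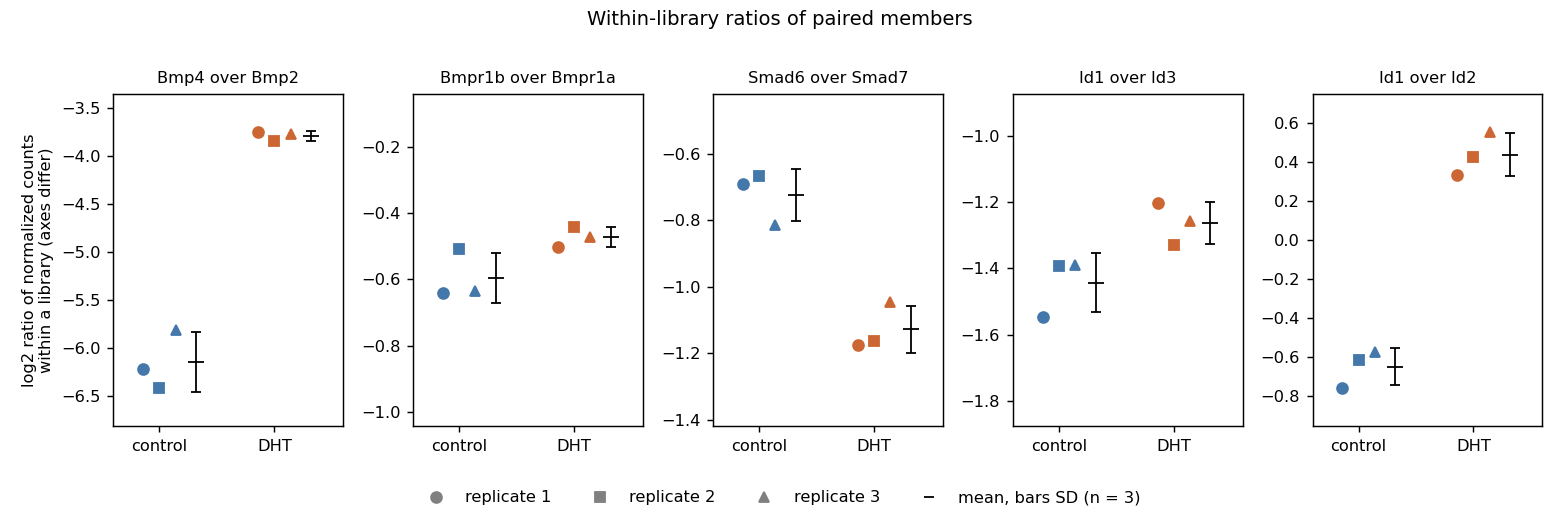
Log2 ratio of the normalized counts of paired members within each library, with axes that differ between panels and the mean with SD (n = 3) beside the points. The groups do not overlap in any panel, and control replicate 3 stays with the other controls in *Id1* over *Id2*, where the control values lie between -0.76 and -0.58 and the DHT values between 0.33 and 0.55.

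Levels of different genes were compared as normalized counts per kilobase of exon. In control the order by mean was *Id3* (3349 ± 832), *Id1* (1910 ± 537), *Id2* (1416 ± 332), *Bmpr1a* (1177 ± 58.7), *Bmpr2* (1167 ± 85.1), *Bmp2* (932 ± 175), *Bmpr1b* (830.4 ± 54.3), *Smad7* (775 ± 68.1), *Smad6* (661 ± 33.8) and *Bmp4* (20.1 ± 1.49; SD, n = 3). By mean the *Id* genes therefore stood at the top, *Bmp2* lay among the receptors, the inhibitory SMAD genes came below them, and *Bmp4* was far below the rest. Neighbours whose control ranges did not overlap were *Id3* and *Id1*, *Bmpr2* and *Bmp2*, *Smad7* and *Smad6*, and *Smad6* and *Bmp4*, and the other neighbours overlapped. With DHT the levels of *Id2* (909 ± 115) and *Bmp2* (482 ± 13.8) fell to the sixth and the eighth place, while *Bmp4* (54.8 ± 0.831) stayed last.

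Profiles over the 6 libraries were compared by the root mean square difference of log2 values centred on the mean of each gene. The genes nearest to *Bmp4* were *Slc36a2*, *Acat2* and *Cp*, at 0.0758, 0.119 and 0.122. *Slc36a2* rose from 96.3 to 248 normalized counts, and all 3 were higher in every DHT library. Nearest to *Bmpr1b* were *Sgsm3*, *Oxct1* and *Lig1*, at 0.0158, 0.0221 and 0.0225, and nearest to *Id1* were *Grasp*, *Irf2bp2* and *Maff*, at 0.0301, 0.0386 and 0.0408. In each of the last 3, control replicate 3 lay within the range of the DHT libraries, as it did for *Id1*. *Grasp*, for example, held 496, 487 and 764 normalized counts in control and 867, 759 and 751 with DHT.

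A wider list of 72 other BMP pathway genes was read from the same test, of which 59 were tested. With DHT, 11 were higher, 3 were lower and 45 did not pass, so 14 of 59 were called, beside the 11.2% of all genes tested. None of the 14 changed by more than 2-fold with all 6 libraries. *Nog* did without control replicate 2 (log2 fold change 1.21, limma adjusted p = 0.000948) and without DHT replicate 2 (1.05, limma adjusted p = 0.0244). The count was 8 without DHT replicate 3, 9 without DHT replicate 2 or with the replicate block, and 5 with no intensity trend. Without control replicate 3, 21 of the 59 were called, 16 higher and 5 lower, beside 13% of all genes tested in that fit. Leaving out control replicate 3 gained *Hes1*, *Hey1*, *Runx2*, *Fst*, *Twsg1*, *Smad1* and *Tob1*, all higher, and *Bmp3* and *Bambi*, both lower, and it lost *Ctdsp2* and *Tcf4*. *Hes1* had the largest change there, 3.40 on the log2 scale (limma, Benjamini-Hochberg adjusted p = 1.16e-07). With all 6 libraries the median log2 fold change was 0.11 over the 59 genes and -0.01 over all genes tested. No other ligand of the 9 tested was called with all 6 libraries. By level per kilobase the most abundant of these was *Bmp1*, a procollagen protease despite its name, at 738 in control, followed by *Bmp3* at 376.

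Among extracellular antagonists and modulators, 3 of 16 were higher and 1 was lower, where 6.52% of all genes tested were called higher and 4.66% lower. *Nog* encodes noggin, which captures BMP2 and BMP4 outside the cell. It held 182, 311 and 208 normalized counts in control and 445, 415 and 503 with DHT, a log2 fold change of 0.99 (limma, Benjamini-Hochberg adjusted p = 0.00821). *Grem1*, the antagonist gremlin, held 1562, 2212 and 2381 in control and 3824, 2948 and 2993 with DHT, a log2 fold change of 0.68 (limma, Benjamini-Hochberg adjusted p = 0.0227). Both genes were higher in every DHT library, and the call of *Grem1* was lost without DHT replicate 1 or DHT replicate 3, with a limma adjusted p of up to 0.0672. *Bmper*, a secreted BMP-binding protein, was higher by 0.40, and *Fstl1*, a secreted follistatin-like glycoprotein, was lower at -0.33 on the log2 scale. With no intensity trend in limma none of these 4 stayed called, with adjusted p-values of 0.0679 for *Nog*, 0.122 for *Grem1*, 0.0545 for *Bmper* and 0.0755 for *Fstl1*. The most abundant gene of this group per kilobase, *Crim1*, held 63462 normalized counts in control and 66630 with DHT and was not called.

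Of 9 other receptors and co-receptors, 1 was called, beside 11.2% of all genes tested. *Tgfbr3*, which encodes the co-receptor betaglycan, held 437, 432 and 421 normalized counts in control and 617, 711 and 717 with DHT, a log2 fold change of 0.66 (limma, Benjamini-Hochberg adjusted p = 0.000716). The most abundant per kilobase, *Neo1*, had a log2 fold change of -0.13 and was not called.

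Of 15 SMADs and regulators, 5 were higher and 1 was lower, beside the same 6.52% and 4.66% of all genes tested. The lower gene was *Smad9*, which encodes SMAD8. It held 709, 673 and 663 normalized counts in control and 426, 456 and 378 with DHT, a log2 fold change of -0.70 (limma, Benjamini-Hochberg adjusted p = 0.00079). The other SMADs that carry the BMP signal, *Smad1* and *Smad5*, and their partner *Smad4*, had log2 fold changes of 0.16, 0.01 and -0.05 and did not pass with all 6 libraries. *Pmepa1*, a membrane protein that binds SMADs and a known androgen-responsive gene, held 1053, 1049 and 1146 in control and 1840, 1715 and 1891 with DHT, a log2 fold change of 0.75 (limma, Benjamini-Hochberg adjusted p = 0.000109). The co-repressors *Skil* and *Ski* were higher by 0.48 and 0.16, and the phosphatase genes *Ctdspl* and *Ctdsp2* by 0.26 and 0.17. *Skil* lost its call under every removal of 1 library except that of control replicate 3, *Ski* under 3 of the 6 removals and *Ctdsp2* under 4, with limma adjusted p-values of up to 0.0937, 0.12 and 0.121. *Ctdspl* kept its call under all 6. *Tob1* was the most abundant of this group per kilobase, at 2593 in control, and was not called with all 6 libraries.

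Among 10 other targets and ID partners, *Atoh8*, a basic helix-loop-helix factor, was lower. It held 1335, 1306 and 1370 normalized counts in control and 775, 804 and 803 with DHT, a log2 fold change of -0.75 (limma, Benjamini-Hochberg adjusted p = 5.51e-05). Control replicate 3 lay with the other controls, as it did for *Smad6* and *Smad9*. The E protein genes *Tcf4* and *Tcf12* were higher by 0.16 and 0.14 with limma adjusted p-values of 0.0383 and 0.0361. Each lost its call under 5 of the 6 removals of 1 library, with limma adjusted p-values of up to 0.116 and 0.121. *Tcf3*, the most abundant of this group per kilobase, was not called. *Id4* was barely present, with 34.2 normalized counts in control and 37.1 with DHT.

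**Figure D5:**
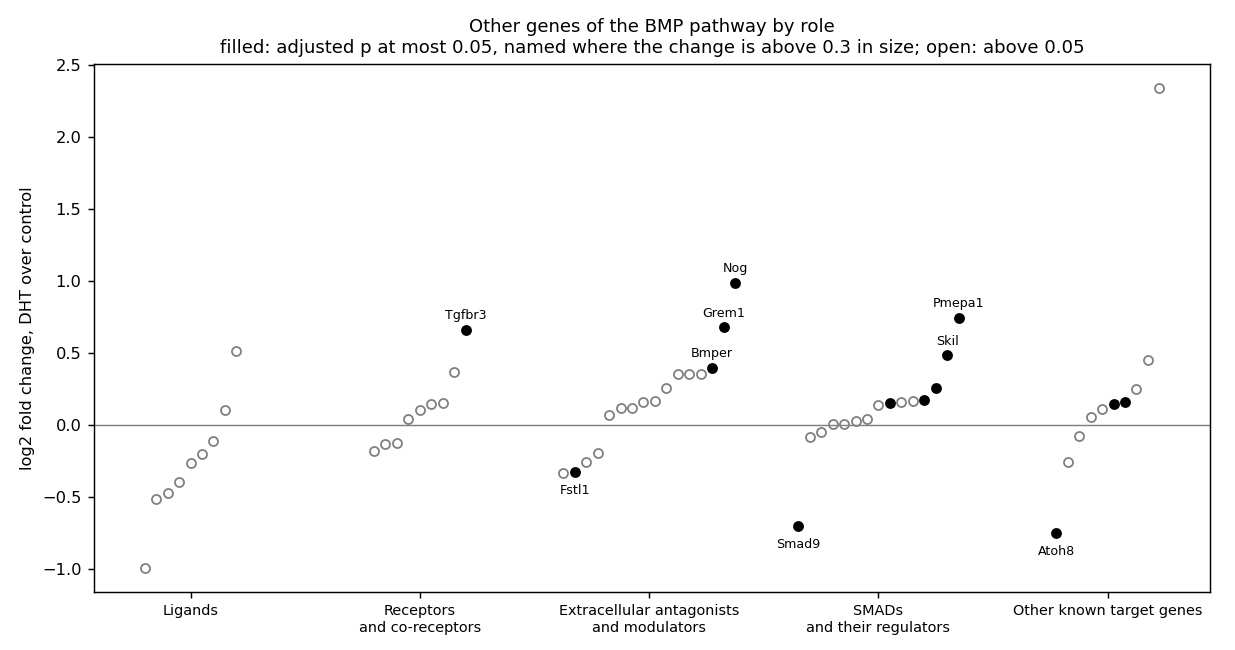
Log2 fold change of DHT over control for 59 other BMP pathway genes, grouped by role and ordered by value within a group, with filled points for an adjusted p of at most 0.05. *Nog*, *Grem1*, *Tgfbr3* and *Pmepa1* lie between 0.66 and 0.99, *Smad9* and *Atoh8* lie at -0.70 and -0.75, and the open point at 2.34 is *Hes1*, which did not pass (limma adjusted p = 0.0678) but did without control replicate 3 (3.40, limma adjusted p = 1.16e-07).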

How the data were processed

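RNA-seq was analysed in 3 control and 3 DHT libraries. Per the labels and the study's methods, the authors trimmed reads with Trimmomatic 0.36, mapped them to GRCm38 with STAR 2.5.2b, counted unique reads in exons with featureCounts (Subread 1.5.2) and divided by DESeq2 size factors. The deposited signal is this normalized count. Strand use in counting is not given in the sources used here. The authors' own fold changes and p-values, and their table of 190 selected genes, were not used. Reads, recovered from the common step of each library, were whole for 100% of values within 0.01 and summed to 36111177 to 41928585.

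Values were tested as log2(value + 1) with limma 3.58.1 (intensity trend) in R 4.3.3, on 16292 genes whose mean reached 10. The pseudocount understates changes of low genes. On simulated data with the same spread set for every gene, the fit recovered 54.4% of log2 changes of 0.5, 93.5% of 1 and 100% of 2. It made 3 false calls. Alternatives included edgeR 4.0.16, DESeq2 1.42.0 and the replicate number as a block. Groups came from the treatment label, and p-values measure the spread between pools. Genes named are the members, called genes of a fixed pathway list, its most abundant genes by role, the nearest profiles and overlapping genes. Cell type markers, the genes gained or lost without control replicate 3, and *Smad4*, *Smad5*, *Id4*, *Gdf9*, *Bmp15*, *Hes1* and *Nr4a1* were named outside that rule, after their values were seen. Members and lists were chosen with earlier results of these data known. Exon lengths and overlaps came from GENCODE M21.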

Additional observations from a re-analysis of the deposited data

How the results depend on the processing

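No direction changed for any member or called pathway gene under any alternative. Of 160 values recomputed for the members, 140 kept their side of the threshold, 17 lost the call and 3 gained it. Of 224 values recomputed for the 14 called pathway genes, 183 kept the call and 41 lost it. *Bmp2*, *Bmp4* and *Smad6* stayed called throughout, with adjusted p-values of at most 0.0344, 0.00786 and 0.0121 over all alternatives that kept the 6 libraries. The replicate number as a block called 3 members, 9 pathway genes and 990 genes in all, and limma with no intensity trend called 3, 5 and 804, in place of 6, 14 and 1823. Both lost *Grem1*, *Ski*, *Ctdsp2*, *Tcf4* and *Tcf12* of the pathway genes, and *Nog*, *Bmper*, *Fstl1* and *Skil* were also lost with no trend. *Bmpr1b*, *Id2* and *Smad7* were the members lost in both, with block adjusted p-values of 0.0579, 0.0701 and 0.14 by limma. *Skil* was also lost under the DESeq2 Wald test (adjusted p = 0.0559), and *Ctdsp2* and *Tcf4* with quantile normalization (limma adjusted p = 0.051 and 0.0554). The labels do not tie equal numbers to a shared pool, deviations from the group means correlated at 0.0058, 0.067 and -0.24 between same-numbered libraries, and 1 of 6 libraries correlated best with its own number, so the replicate block is only a check. With 1 library left out in turn, 3 to 7 members, 8 to 21 pathway genes and 937 to 2103 genes in all were called, the 21 and 2103 without control replicate 3. The fewest members, 3, were called without DHT replicate 2 or DHT replicate 3, which gave 968 and 937 genes in all and 9 and 8 pathway genes. Genes called with more than a 2-fold change numbered 213, and 131 with a mean of at least 50, which tests fewer genes, and 140 (without DHT replicate 3) to 285 with 1 library left out. The cause of the other changes was not tested. The differences in the 4 planned ratios kept their sign under each pseudocount and removal. Those of *Id1* and *Id3* to *Id2* were recomputed only under each removal, and kept theirs. With the longest transcript as the length, 8 of 10 members kept their place in the order of control levels. Depth limits *Bmp4* most, at 45 to 128 reads a library.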

Other observations

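The oocyte ligands of the BMP family, *Gdf9* and *Bmp15*, varied among libraries of the same group. *Gdf9* held 257, 121 and 87.1 normalized counts in control and 182, 28.4 and 177 with DHT, and *Bmp15* held 140, 31.6 and 22.2 in control and 65.6, 2.18 and 63.1 with DHT. The summed count of 7 oocyte markers, which include both genes, was highest in control replicate 1 (779) and lowest in DHT replicate 2 (34.9). Neither gene passed the test between groups (limma, Benjamini-Hochberg adjusted p = 0.691 for *Gdf9* and 0.639 for *Bmp15*).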
